A study of Mus musculus with 27 samples.

Results

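The MHC class II genes described here are H2-Aa, H2-Ab1, H2-Eb1, H2-DMa, H2-DMb1, Cd74 and Ciita, 7 genes of the 55414 in the count table, each found by the Ensembl identifier that carries its symbol. RNA of total liver was sequenced from 27 female Balb/c mice, aged 8 weeks at the start, after a 2-week course in which 14 mice received carbon tetrachloride (CCl4), a hepatotoxin that causes liver fibrosis, by intraperitoneal injection. The other 13 mice received olive oil by the same route. The control group (n = 4) also had PBS injections into the tail vein, the 4MU group (n = 3) had 4-methylumbelliferone by gavage, and the siLuc-LNP and siHAS2-LNP groups (n = 3 each) had siRNA in lipid nanoparticles injected into the tail vein. The CCl4 + 4MU group, the CCl4 + siLuc-LNP group and the CCl4 + siHAS2-LNP group (n = 4 each) had the same agents together with CCl4, and the CCl4 group (n = 2) had CCl4 alone. 4MU, an inhibitor of hyaluronan synthesis, was given at 600 mg/kg every day. The siRNA was given at 1 mg/kg and then at 0.5 mg/kg, and both kinds of agent were started 2 days before the first CCl4 dose. The siHAS2 siRNA was directed against Has2, a hyaluronan synthase, and the siLuc siRNA against luciferase, a gene that mice lack. The methods also gave the control mice the gavage vehicle. No group pairs CCl4 with empty nanoparticles, so siRNA and nanoparticle cannot be told apart except by comparing the siRNAs.

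MHC class II molecules sit on antigen-presenting cells and show peptides from endosomes to CD4+ T cells. H2-Aa and H2-Ab1 encode the alpha and beta chains of the I-A molecule, and H2-Eb1 encodes the beta chain of I-E. Cd74 is the invariant chain, which holds new class II molecules together and guides them to endosomes. H2-DMa and H2-DMb1 encode chains of H2-DM, which exchanges the last fragment of the invariant chain for antigenic peptides. Ciita is the transactivator that turns on the whole group by joining a protein complex, the enhanceosome, on the X and Y boxes of their promoters, and in many cells it is itself induced by interferon gamma. In liver the usual carriers of class II are dendritic cells, B cells and macrophages, including the resident Kupffer cells.

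Promoter sequence was examined for the members in the RefSeq table of windows from 250 bases before to 50 bases after each gene start (GRCm38.p6), which held H2-Aa, H2-Eb1, H2-DMa and H2-DMb1, 4 of the 7. H2-Ab1, Cd74 and Ciita were not in the table. On both strands, the Y box core CTGATTGG was found in 4.1% of all 32851 windows, the X box core ACNGATG in 9.85%, and both together in 0.350%, which is 115 windows. The H2-Aa and H2-Eb1 windows were among those with both. The stretches from 100 to 29 bases before the start of these 2 genes are shown. Both hold the Y box core, and that of H2-Eb1 also holds the X box core. On these boxes the shared control of class II genes is known to act. The X box core match of H2-Aa lies outside its stretch. Capitals mark the X box core, the Y box core, the CCAAT element and the cyclic AMP response element TGACGTCA, which was searched after the sequences had been seen and lies in 1.79% of all windows.
H2-Aa: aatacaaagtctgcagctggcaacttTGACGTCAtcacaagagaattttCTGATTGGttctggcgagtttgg
H2-Eb1: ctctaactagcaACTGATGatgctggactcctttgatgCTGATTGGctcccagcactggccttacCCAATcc
By exact match, the H2-Aa stretch is at chr17:34506826-34506897 of GRCm39 (minus strand), outside the exons of H2-Aa and within the annotated span of H2-Eb1 on the other strand. The H2-Eb1 stretch is at chr17:34524741-34524812 (plus strand), inside the annotated span of H2-Eb1 but in no exon.

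The Y box core began 51 bases before the start in H2-Aa and 62 bases before it in H2-Eb1, and in both it contains a CCAAT element read on the other strand. CCAAT alone lies in 37.4% of all windows. In H2-Eb1 the X box core began 88 bases before the start. H2-Aa had its only match to the X box core 232 bases before the start, on the opposite strand, and carried the cyclic AMP response element 74 bases before it. Whether that match is the X box of H2-Aa was not tested, and an X box that departs from the searched letters would be missed. H2-DMb1 held an X box core 91 bases before its start and a CCAAT element on the other strand 61 bases before it, and the exact Y box core was not found. Of the 2 windows of H2-DMa, 1 held a CCAAT element and neither held the other motifs. These matches describe the letters of the reference, and binding was not measured.

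In the GENCODE vM39 annotation (GRCm39), 5 members lie close together on chromosome 17. H2-DMa (ENSMUSG00000037649) spans bases 34338515 to 34358958 on the plus strand, H2-DMb1 (ENSMUSG00000079547) spans 34372046 to 34379204 on the plus strand, and H2-Ab1 (ENSMUSG00000073421) spans 34476663 to 34488393 on the plus strand. H2-Aa (ENSMUSG00000036594) spans 34493404 to 34506798 on the minus strand and H2-Eb1 (ENSMUSG00000060586) spans 34504236 to 34535648 on the plus strand, so the ends of these 2 genes overlap. Ciita (ENSMUSG00000022504) is on chromosome 16, at 10297923 to 10347694 on the plus strand, and Cd74 (ENSMUSG00000024610) is on chromosome 18, at 60936899 to 60945731 on the plus strand. The values are counts over whole exons. Exons on opposite strands share 118 bases between H2-Aa and H2-Eb1, 510 bases between H2-DMa and Brd2 (11.8% of the exonic bases of H2-DMa) and 633 bases between Ciita and Dexi (5.73% of those of Ciita). The strand setting of the counting is not given in the sources used here, so reads in those bases may not be separated. H2-DMb1 and H2-DMb2 have 14.1% of the 85-base windows of H2-DMb1 in common, and reads from them could be lost from both. The reference genome is of a C57BL/6 mouse, which carries a different haplotype of these polymorphic genes from Balb/c, so levels of H2-Aa, H2-Ab1 and H2-Eb1 may be understated by reads that failed to align.

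Libraries held between 7044386 and 29425937 counts, with a median of 22109517, and 3 counts correspond to between 0.102 and 0.426 CPM, counts scaled to the library total. Has2, the target of siHAS2, had 0 counts in 25 of the 27 libraries and at most 2 in the others, so its knockdown could not be checked in these livers. All 7 members passed the filter of a mean of 10 counts per library, as did 14114 genes in all. H2-Aa had 106 to 1665 counts per library and Cd74 had 313 to 5960. H2-DMb1 had 12 to 114 and Ciita had 14 to 138, so these 2 genes carry more counting error.

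Compared per kilobase of exon, Cd74 was the most abundant member in the control livers, at 41.0 ± 15.0 CPM per kilobase (SD, n = 4). H2-Eb1 followed at 15.8 ± 5.78, H2-Ab1 at 13.0 ± 4.63 and H2-Aa at 8.83 ± 2.54 CPM per kilobase, and the first 2 differed by less than either SD, while the gap from H2-Ab1 to H2-Aa was within the SD of H2-Ab1 and not that of H2-Aa. The peptide exchange genes were lower, with H2-DMa at 1.25 ± 0.403 and H2-DMb1 at 1.23 ± 0.428 CPM per kilobase, again within their SDs of each other. Ciita, a regulator, was the least abundant by this measure at 0.240 ± 0.0832 CPM per kilobase. The order depends on the length used, all annotated exonic bases, whose match to the mRNAs present was not tested. It was 4292 bases for H2-Aa, 2568 for H2-Ab1, 4331 for H2-DMa, 1681 for H2-DMb1 and 11041 for Ciita. In CPM without this division, the control mean of H2-Aa (37.9) was above that of H2-Ab1 (33.3). H2-DMa (5.43) was then above H2-DMb1 (2.06), which was below Ciita (2.645). With CCl4 alone the order of the means per kilobase was the same. It ran from 17.9 ± 8.18 CPM per kilobase for Cd74 (SD, n = 2) to 0.0882 for Ciita.

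**Figure D1:**
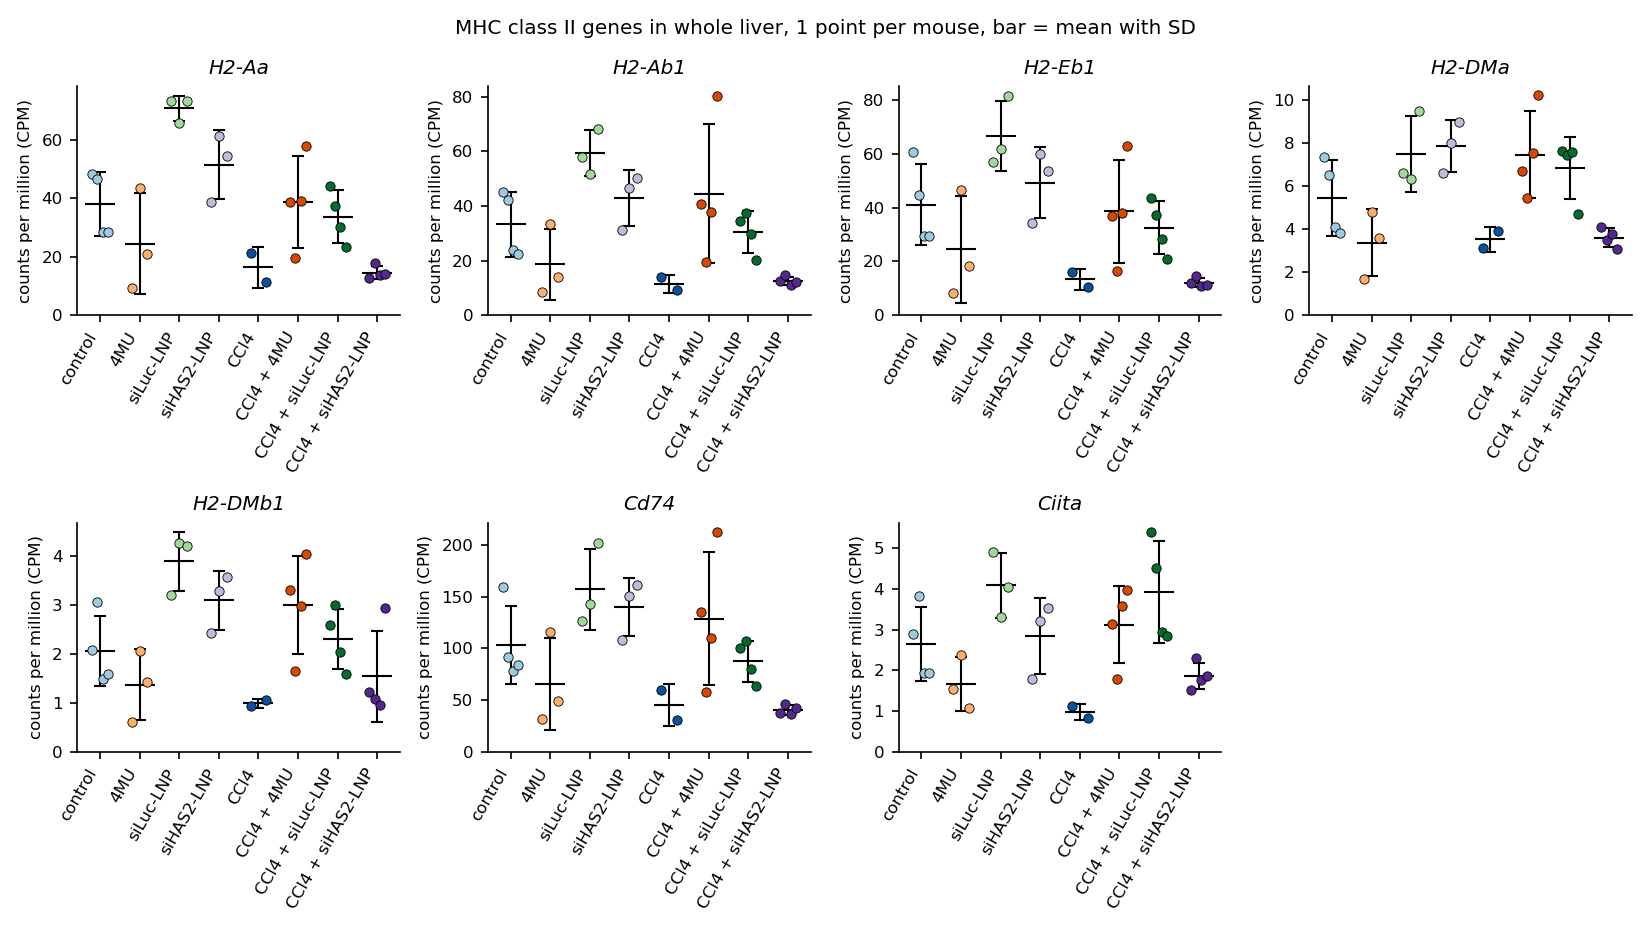
CPM of the 7 MHC class II genes on a linear axis in each of 27 mice, by group, with 1 point per mouse and the group mean with SD. The siLuc-LNP mice sit highest for H2-Aa (65.8 to 73.2 CPM), and the CCl4 and CCl4 + siHAS2-LNP mice sit low for H2-Aa (11.3 to 21.4 CPM).

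The H2-Aa mRNA level, taken as an example of the presenting chains, was highest in the siLuc-LNP group at 70.7 ± 4.26 CPM (SD, n = 3), followed by siHAS2-LNP at 51.5 ± 11.7 CPM (n = 3). CCl4 + 4MU at 38.8 ± 15.7 (n = 4), control at 37.9 ± 10.9 (n = 4) and CCl4 + siLuc-LNP at 33.7 ± 9.13 CPM (n = 4) were within 1 SD of each other. The 4MU group had 24.5 ± 17.4 CPM (n = 3), the largest SD of the groups, with mice from 9.17 to 43.4 CPM. The lowest means were in the CCl4 group at 16.3 ± 7.14 CPM (n = 2) and the CCl4 + siHAS2-LNP group at 14.6 ± 2.19 CPM (n = 4), whose mice overlapped.

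The first comparison asks how livers given CCl4 alone differ from control livers. H2-Aa was 48.3, 46.4, 28.6 and 28.4 CPM in control mice 1 to 4 and 21.4 and 11.3 CPM in CCl4 mice 1 and 2. Its log2 fold change was -1.22 (SE 0.44, adjusted p = 0.0331). H2-Eb1 was 60.7, 44.8, 29.4 and 29.3 CPM in control and 16.1 and 10.6 CPM with CCl4. Both genes had the same layout, with control mice 1 and 2 well above control mice 3 and 4, and with each CCl4 mouse below the lowest control mouse. The log2 fold change of H2-Eb1 was -1.62 (SE 0.51, adjusted p = 0.0159). H2-Ab1 fell by 1.54 on the log2 scale (SE 0.47, adjusted p = 0.0136), from 33.3 ± 11.9 CPM (SD, n = 4) to 11.5 ± 3.35 CPM (n = 2).

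Cd74 was 159.3, 91.7, 78.2 and 83.4 CPM in the control mice and 59.6 and 30.5 CPM in the CCl4 mice, a log2 fold change of -1.20 (SE 0.45, adjusted p = 0.0414). Control mouse 1 was far above the rest, and the groups did not overlap. Ciita was 2.90, 3.84, 1.92 and 1.92 CPM in the control mice and 1.12 and 0.8289 CPM with CCl4, again without overlap, and fell by 1.43 on the log2 scale (SE 0.41, adjusted p = 0.00947). H2-DMb1 (log2 fold change -1.04, SE 0.46, adjusted p = 0.0836) and H2-DMa (-0.62, 95% interval -1.30 to 0.07, adjusted p = 0.157), the peptide exchange genes, did not pass the test. In all, 5 of the 7 members were called lower, where 16.1% of all genes tested were (adjusted p under 0.05). In whole liver, fewer class II-bearing cells and less class II mRNA per cell cannot be told apart. The call rested on few mice: without CCl4 mouse 2 0 of the 7 passed, and without control mouse 1 or control mouse 2, 3 did. limma-voom called 0 members, and DESeq2 called the same 5. With 1 CCl4 mouse left out, the other is assumed to vary like the other groups.

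Each CCl4 group was also compared with its own group without CCl4. These 4 comparisons share no mice with one another. In the siHAS2-LNP arm, H2-Aa was 38.6, 61.3 and 54.5 CPM without CCl4 and 12.6, 17.7, 13.8 and 14.2 CPM with it. The groups were far apart, and the log2 fold change was -1.82 (SE 0.37, adjusted p = 0.0015). Cd74 was 108.3, 150.1 and 161.0 CPM without CCl4 and 37.5, 46.3, 35.9 and 41.8 CPM with it, also with no overlap. It fell by 1.79 on the log2 scale (SE 0.38, adjusted p = 0.00215). H2-Eb1 fell by 2.02 (SE 0.42, adjusted p = 0.00203), H2-Ab1 by 1.76 (SE 0.39, adjusted p = 0.00334) and H2-DMa by 1.10 (SE 0.29, adjusted p = 0.0115). Thus 5 of 7 members were called lower, where 5.09% of all genes tested were. The same 5 members had every CCl4 + siHAS2-LNP mouse below every siHAS2-LNP mouse, as 12.5% of the genes tested did. H2-DMb1 (log2 fold change -1.13, adjusted p = 0.0542) and Ciita (-0.60, 95% interval -1.29 to 0.09, adjusted p = 0.257) did not pass the test.

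In the siLuc-LNP arm, H2-Aa was 73.2, 65.8 and 73.2 CPM without CCl4 and 44.3, 37.4, 30.0 and 23.2 CPM with it. The groups did not overlap, and H2-Aa fell by 1.07 on the log2 scale (SE 0.36, adjusted p = 0.0310). It was the 1 member of 7 called lower, where 11.2% of all genes tested were. The other presenting chains had changes of similar size, -0.96 for H2-Ab1 (adjusted p = 0.0640) and -1.04 for H2-Eb1 (adjusted p = 0.0646), and Cd74 had -0.85 (adjusted p = 0.0983). H2-DMb1 had -0.75 (adjusted p = 0.131). The values of H2-DMa (log2 fold change -0.14, 95% interval -0.71 to 0.44) and Ciita (-0.05, 95% interval -0.71 to 0.60) were nearest to 0. No member was called without CCl4 + siLuc-LNP mouse 3 or 4, or without siLuc-LNP mouse 1, 2 or 3, while 3 were called by DESeq2, 3 in a fit of the compared groups only, 4 with no filter on low counts and 0 by limma-voom.

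In the 4MU arm the values pointed the other way. H2-DMa was 1.69, 4.80 and 3.60 CPM in the 4MU mice and 6.67, 5.44, 7.50 and 10.2 CPM in the CCl4 + 4MU mice, which were all higher, and rose by 1.14 on the log2 scale (SE 0.29, adjusted p = 0.00615). H2-Ab1 was 8.61, 33.4 and 13.9 CPM in the 4MU mice and 40.6, 19.5, 37.7 and 80.3 CPM with CCl4, groups that overlapped. Its rise was 1.25 (SE 0.39, adjusted p = 0.0228), and H2-DMb1 rose by 1.12 (SE 0.38, adjusted p = 0.0354). These were 3 of 7 members, where 13.2% of all genes tested were called higher. Ciita (log2 fold change 0.90, adjusted p = 0.0517), Cd74 (0.98, adjusted p = 0.0649), H2-Aa (0.66, 95% interval -0.10 to 1.42, adjusted p = 0.201) and H2-Eb1 (0.65, 95% interval -0.21 to 1.51, adjusted p = 0.270) did not pass. The number called was 7 without 4MU mouse 2, 5 without CCl4 + 4MU mouse 2, and 1 without 4MU mouse 1, 4MU mouse 3 or CCl4 + 4MU mouse 4. It was 5 by DESeq2, 7 with no filter on low counts and 1 in a fit of the compared groups only.

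Averaged over the 4 arms, 4 members were called lower with CCl4, where 25.6% of all genes tested were called lower and 26.3% higher. H2-Eb1 fell by 1.01 on the log2 scale (SE 0.22, adjusted p = 0.00044), H2-Aa by 0.86 (SE 0.19, adjusted p = 0.000541), H2-Ab1 by 0.75 (SE 0.20, adjusted p = 0.00302) and Cd74 by 0.71 (SE 0.20, adjusted p = 0.00373). H2-DMb1 had -0.45 (adjusted p = 0.0606), Ciita -0.30 (95% interval -0.65 to 0.06, adjusted p = 0.158) and H2-DMa -0.18 (95% interval -0.48 to 0.13, adjusted p = 0.320). The median over the 7 members was -0.71, and over all genes tested it was -0.02. The arms entering this mean pointed in different directions, so it describes no arm by itself.

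**Figure D2:**
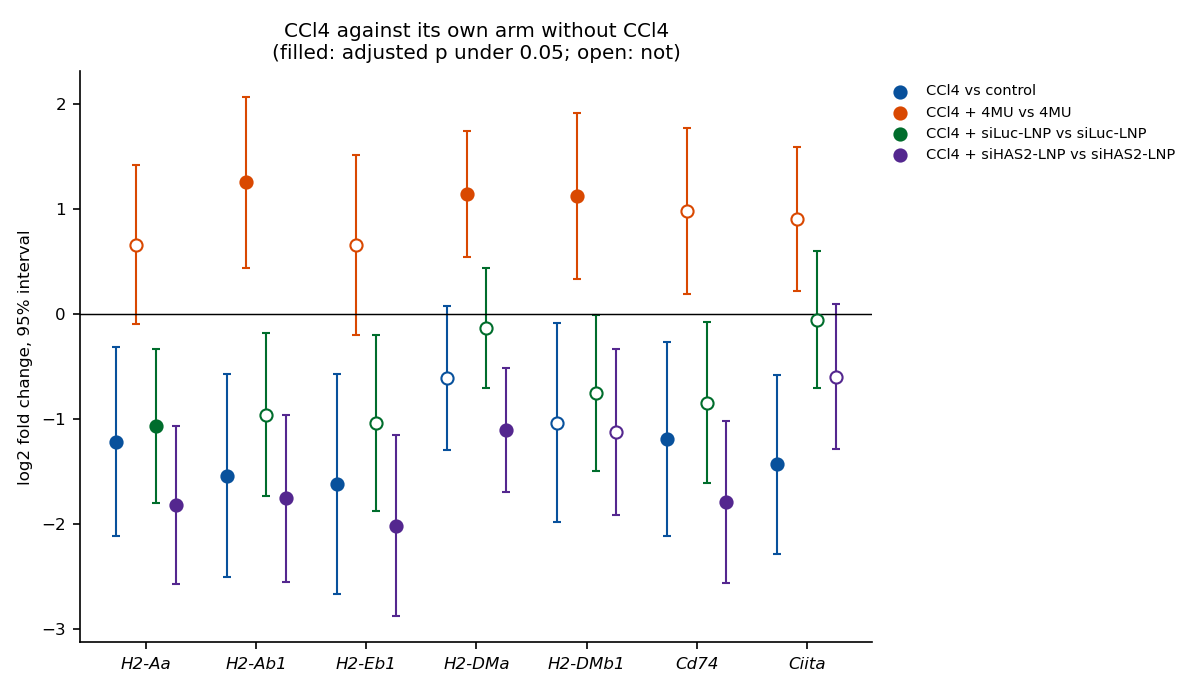
log2 fold change of each member with CCl4 against the matching group without CCl4, with 95% intervals from edgeR, in the control, 4MU, siLuc-LNP and siHAS2-LNP arms. Points of the 4MU arm lie above 0 (0.65 to 1.25). Those of the siHAS2-LNP arm (-2.02 to -0.60) lie lowest for every member but Ciita, which is lowest in the control arm (-1.43).

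The study's treatments were then compared among the livers given CCl4. Those with 4MU are compared with CCl4 alone, and the comparisons of siLuc-LNP and siHAS2-LNP with CCl4 alone share these 2 CCl4 mice. H2-Ab1 was 13.8 and 9.08 CPM with CCl4 alone and 40.6, 19.5, 37.7 and 80.3 CPM in CCl4 + 4MU mice 1 to 4. All mice given 4MU were above both others, and the log2 fold change was 1.96 (SE 0.48, adjusted p = 0.0074). Ciita was 1.12 and 0.8289 CPM with CCl4 and 3.14, 1.80, 3.59 and 3.99 CPM with 4MU added, also without overlap. It rose by 1.69 on the log2 scale (SE 0.41, adjusted p = 0.00733). Cd74 was 59.6 and 30.5 CPM with CCl4 and 135.1, 57.4, 110.2 and 212.1 CPM with 4MU added. Mouse 2 of CCl4 + 4MU lay between the 2 CCl4 mice, and Cd74 rose by 1.52 (SE 0.46, adjusted p = 0.0236).

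The other members rose as well: H2-DMb1 by 1.60 (SE 0.46, adjusted p = 0.0189), H2-Eb1 by 1.54 (SE 0.51, adjusted p = 0.0362), H2-Aa by 1.25 (SE 0.44, adjusted p = 0.0466) and H2-DMa by 1.08 (SE 0.34, adjusted p = 0.0276). All 7 members were thus called higher, where 8.28% of all genes tested were. Within the CCl4 + 4MU group, mouse 2 was the lowest and mouse 4 the highest for every member. Mouse 4 also stood apart in bile duct markers: the summed cholangiocyte list was 121.6 CPM in it, against 5.81 to 10.98 CPM in the other CCl4 + 4MU mice. Without mouse 4, 2 members passed, H2-Ab1 at a log2 fold change of 1.51 and Ciita at 1.56. Without CCl4 mouse 1, 4 members passed, and without CCl4 mouse 2, 0 did, with the remaining CCl4 mouse assumed to vary like the other groups. A fit of the compared groups only called 4 members and limma-voom called 1, H2-Ab1.

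With siLuc-LNP and CCl4, Ciita was 5.41, 4.51, 2.94 and 2.84 CPM, above both CCl4 mice at 1.12 and 0.8289 CPM. It rose by 2.02 on the log2 scale (SE 0.42, adjusted p = 0.0334). It was the only member called higher, where 0.0567% of all genes tested were. The other 6 members had log2 fold changes of 0.95 to 1.42 with adjusted p of 0.159 to 0.332. All 7 members had an unadjusted p under 0.05, a looser threshold for which the share of all genes is not given here. No member was called without CCl4 + siLuc-LNP mouse 1, 2 or 3 or without CCl4 mouse 2, and 3 were called without CCl4 + siLuc-LNP mouse 4. The count was 2 by DESeq2, 5 with no filter on low counts, and 0 by limma-voom and in a fit of the compared groups only.

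With siHAS2-LNP and CCl4, the members' values lay around those with CCl4 alone, and none passed the test. H2-Ab1 was 12.6, 14.6, 11.1 and 12.2 CPM, around the 13.8 and 9.08 CPM of the CCl4 mice, with a log2 fold change of 0.14 (95% interval -0.78 to 1.07). For H2-Aa the value was -0.16 (95% interval -1.02 to 0.70), for H2-Eb1 -0.13 (-1.12 to 0.86), for Cd74 -0.16 (-1.03 to 0.72), for H2-DMa 0.04 (-0.64 to 0.73) and for H2-DMb1 0.51 (-0.46 to 1.47). Ciita was 1.53, 2.295, 1.77 and 1.87 CPM, each above both CCl4 mice, with a log2 fold change of 0.94 (95% interval 0.08 to 1.79). edgeR called 0 of 7 members, where 14.4% of all genes tested were called in either direction. At an unadjusted p under 0.05, for which the share of all genes is not given here, there was 1 member (Ciita). DESeq2 and limma-voom also called 0.

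The siRNAs were compared directly between CCl4 + siHAS2-LNP and CCl4 + siLuc-LNP, groups whose labels differ only in the siRNA. H2-Eb1 was 43.5, 37.3, 28.3 and 20.9 CPM with siLuc-LNP and 11.9, 14.6, 10.9 and 11.1 CPM with siHAS2-LNP. The groups did not overlap, and the siHAS2-LNP mice were the more alike. The log2 fold change was -1.42 (SE 0.40, adjusted p = 0.0742). For the other members it was -1.27 (H2-Ab1, adjusted p = 0.0833), -1.21 (H2-Aa, 0.0802), -1.12 (Cd74, 0.112), -1.08 (Ciita, 0.0823), -0.90 (H2-DMa, 0.0914) and -0.71 (H2-DMb1, 0.334). Thus edgeR called 0 of 7 members lower, where it called 0.305% of all genes tested. At an unadjusted p under 0.05, for which the share of all genes is not given here, there were 6 members. Every siHAS2-LNP mouse was below every siLuc-LNP mouse for 6 members, H2-DMb1 being the exception, as for 3.52% of all genes tested. DESeq2 called 6 members, limma-voom called 0, and edgeR with no filter on low counts called 6.

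The 4MU and siHAS2-LNP treatments, both aimed at hyaluronan, had unlike class II levels in livers given CCl4. H2-Aa was 38.6, 19.5, 39.0 and 58.0 CPM with 4MU and 12.6, 17.7, 13.8 and 14.2 CPM with siHAS2-LNP, with no overlap. The log2 fold change of 4MU over siHAS2-LNP was 1.42 (SE 0.35, adjusted p = 0.0428). H2-Ab1 was higher by 1.82 (SE 0.37, adjusted p = 0.0161), Cd74 by 1.67 (SE 0.36, adjusted p = 0.0214) and H2-Eb1 by 1.67 (SE 0.40, adjusted p = 0.0370). These 4 of 7 members were called higher, where 0.765% of all genes tested were. H2-DMa (1.04, adjusted p = 0.0542), H2-DMb1 (1.09, adjusted p = 0.113) and Ciita (0.76, adjusted p = 0.191) did not pass. The 2 groups also differ in route and vehicle. The count was 2 without CCl4 + 4MU mouse 1 or 3, 1 without CCl4 + siHAS2-LNP mouse 2 or 4, and 0 without CCl4 + 4MU mouse 4 or CCl4 + siHAS2-LNP mouse 3.

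**Figure D3:**
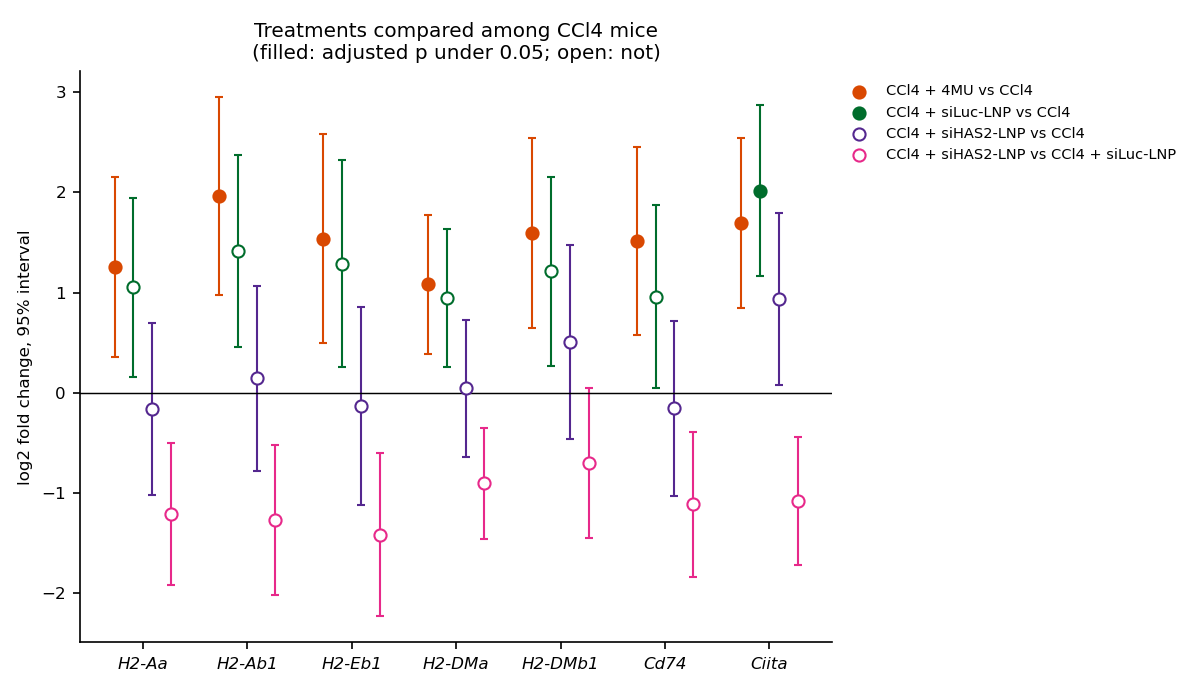
log2 fold change of each member between groups given CCl4, with 95% intervals from edgeR: 4MU, siLuc-LNP and siHAS2-LNP each against CCl4 alone, and siHAS2-LNP against siLuc-LNP. Points for 4MU lie between 1.08 and 1.96, and those for siHAS2-LNP against CCl4 alone lie between -0.16 and 0.94.

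Without CCl4, no member was called for any agent by edgeR. Against control, 4MU gave log2 fold changes of -0.83 (H2-Ab1) to -0.56 (H2-DMb1). Of the 7 members 0 were called, where 0.00709% of all genes tested were called in either direction, and 2 had an unadjusted p under 0.05. 4MU mouse 1 was low for H2-Aa (9.17 CPM) and mouse 2 was within the control range (43.4 CPM), so the groups overlapped. The siLuc-LNP mice had 65.8 to 73.2 CPM of H2-Aa, all above the highest control mouse at 48.3 CPM, and log2 fold changes over control of 0.47 (H2-DMa) to 0.93 (H2-DMb1). Again 0 of 7 were called, where 0.213% of all genes tested were, and 3 had an unadjusted p under 0.05. These shares of all genes are of calls by adjusted p and give no background for the unadjusted counts. DESeq2 and limma-voom called 0 members in both comparisons, which share the control mice, and edgeR with no filter on low counts called H2-Aa and H2-Ab1 with siLuc-LNP. Between siHAS2-LNP and siLuc-LNP the log2 fold changes were -0.54 (Ciita) to 0.06 (H2-DMa), and 0 members had an unadjusted p under 0.05. By edgeR, DESeq2 or limma-voom 0 were called, where edgeR called 0.0425% of all genes tested.

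Whether an agent altered the CCl4 difference was tested as an interaction, the log2 fold change with CCl4 in the treated arm minus that in the control arm. For 4MU the interaction was 2.79 for H2-Ab1 (SE 0.61, adjusted p = 0.0167) and 2.34 for Ciita (SE 0.53, adjusted p = 0.0200). It was 2.28 for H2-Eb1 (SE 0.65, adjusted p = 0.0426), 2.18 for Cd74 (SE 0.59, adjusted p = 0.0355), 2.16 for H2-DMb1 (SE 0.60, adjusted p = 0.0379) and 1.76 for H2-DMa (SE 0.44, adjusted p = 0.0302). Thus 6 of 7 members were called, where 2.72% of all genes tested had a positive call, and H2-Aa was just outside at 1.88 (SE 0.57, adjusted p = 0.0505). The count fell to 3 without 4MU mouse 1 or CCl4 + 4MU mouse 1, to 2 without 4MU mouse 3, CCl4 + 4MU mouse 4 or control mouse 1, and to 0 without CCl4 mouse 2. limma-voom called 1 member.

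For siLuc-LNP the interaction was called for 0 of 7 members by edgeR, DESeq2 and limma-voom, where edgeR called 0.00709% of all genes tested. Ciita, at 1.38, was the 1 member with an unadjusted p under 0.05, for which the share of all genes is not given here. The interaction of siHAS2-LNP against siLuc-LNP was also called for 0 members by the 3 tools, with a background of 0.0354%. H2-DMa, at -0.97, was the 1 member with an unadjusted p under 0.05, again without a share of all genes for that threshold.

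The other classical class II chain of these mice moved in the same direction as the members. H2-Ea encodes the alpha chain of I-E, which pairs with H2-Eb1, and is expressed in Balb/c mice. It was 48.7, 37.0, 24.3 and 26.2 CPM in control mice and 16.2 and 9.53 CPM with CCl4, with no overlap. Averaged over the 4 arms it fell by 0.89 on the log2 scale (SE 0.18, adjusted p = 0.000287), and its 4MU interaction was 1.96 (adjusted p = 0.0393). H2-DMb2, the second H2-DM beta gene, fell by 0.49 averaged over the arms (SE 0.18, adjusted p = 0.0209). H2-Ob and H2-Oa, the chains of the H2-DM inhibitor H2-DO, and H2-Eb2 were under the filter, with at most 20, 6 and 3 counts in any library.

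The factors that act on class II promoters were called at about the rate of all genes. Averaged over the arms, 2 of 7 enhanceosome genes were called lower and 1 higher with CCl4, where 25.6% of all genes tested were called lower and 26.3% higher. Rfxank, a subunit of the RFX complex that binds the X box, fell by 0.58 on the log2 scale, and Nfyb, a subunit of the Y box factor, fell by 0.27. Nfya, its partner, rose by 0.29, and Rfx5, the large RFX subunit, had 0.16 and did not pass. Of 9 tested genes on the list of the interferon gamma path to Ciita, which also holds the myeloid factor Spi1, 4 rose and 1 fell. The receptor chain Ifngr1 rose by 0.63, Spi1 by 0.41, the kinase Jak1 by 0.35 and Irf8 by 0.29, while Irf1 fell by 0.35. Ifng itself had at most 7 counts in any library and was not tested.

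Among 10 genes of endosomal processing, 4 rose and 1 fell with CCl4 averaged over the arms, against the same shares of all genes. Lgmn, an asparagine endopeptidase, rose by 1.07 on the log2 scale, and Ctss, the protease that trims the invariant chain, rose by 0.87, in contrast to Cd74. Ctsd rose by 0.44 and Ctsb by 0.24, and Ctsh fell by 0.24. The arms differed in their counts: 6 of the 10 rose in the 4MU arm, where 13.2% of all genes tested did, 4 in the siLuc-LNP arm (13.0%) and 2 with CCl4 alone against control (18.0%). In the siHAS2-LNP arm the 10 genes had log2 fold changes of -0.44 to 0.42 and did not pass the test. Whether the arms differ for this list was not tested. Of 5 tested costimulation genes, Cd40 rose by 1.25 and Icosl by 0.91, while Cd86, a ligand of CD28, fell by 0.64. In the MHC class I path 4 of 10 genes fell and 1 rose averaged over the arms, where 25.6% of all genes tested fell and 26.3% rose. B2m, the light chain of class I molecules, fell by 0.64, the loading factor Tapbp by 0.34, the heavy chain H2-K1 by 0.33 and the peptide transporter subunit Tap2 by 0.25, and Tap1 rose by 0.24. Nlrc5, which does for class I genes what Ciita does for class II, had 0.15 and did not pass. Taken by arm, 4 of the 10 fell with CCl4 alone against control (16.1% of all genes) and 4 in the siLuc-LNP arm (11.2%), while 1 rose in the 4MU arm (13.2%), where 7 of the 10 values were above 0. In the siHAS2-LNP arm the values were -0.41 to 0.55 and did not pass. For the 4MU interaction, 4 of the 10 class I genes were called positive, where 2.72% of all genes tested were. These were H2-K1 at 1.25, B2m at 1.23, H2-D1 at 1.01 and Tap1 at 0.90. The interaction rests on the 2 mice given CCl4 alone, and its dependence on single mice is not given for these genes.

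**Figure D4:**
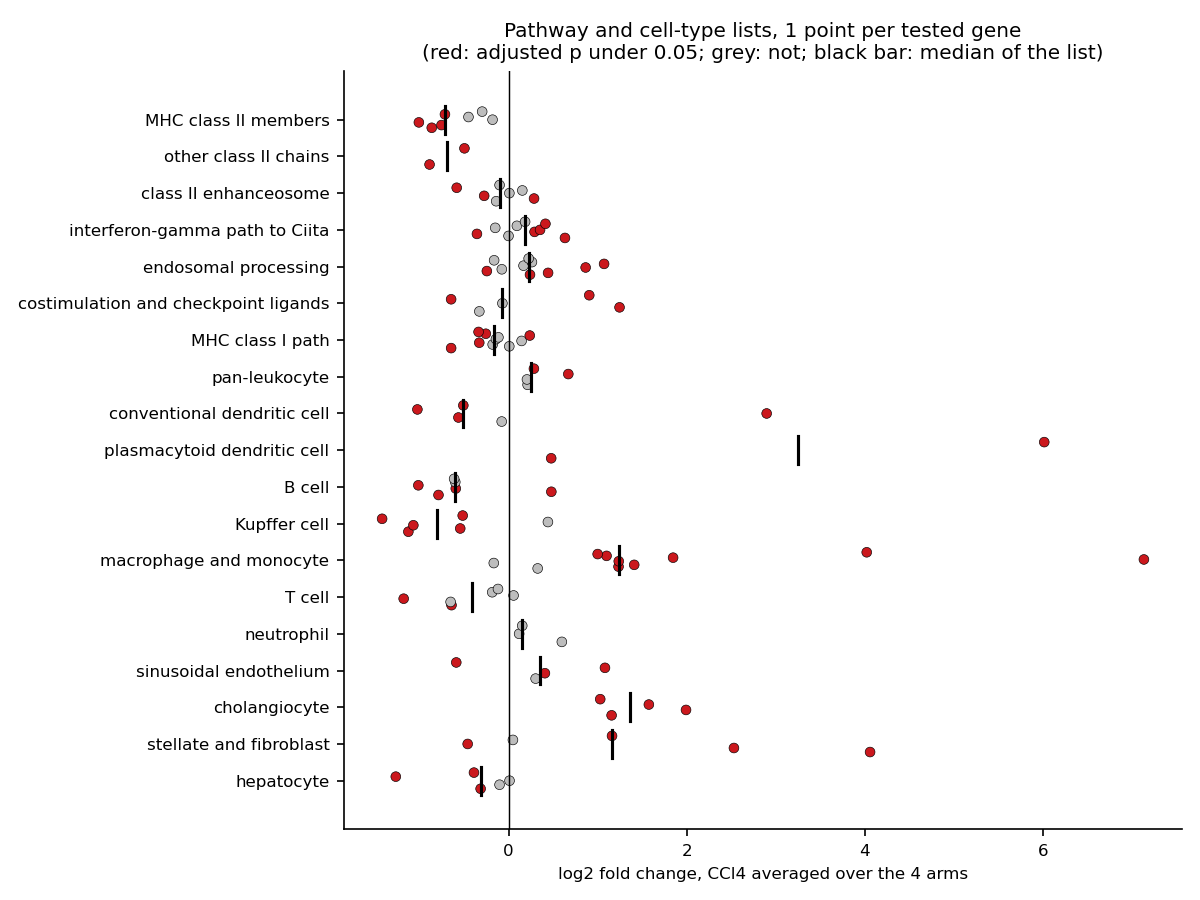
log2 fold change with CCl4, averaged over the 4 arms, for genes of the class II list, the pathway lists and the cell marker lists, with 1 point per gene, red where the adjusted p was under 0.05 and grey otherwise, and a bar at each list's median. The Kupffer cell list lies mostly below 0 and the macrophage and monocyte list mostly above it.

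Markers of cells that could carry class II moved with CCl4 in different directions, and their part in the class II differences was not tested. Averaged over the arms, 25.6% of all genes tested were called lower and 26.3% higher, the shares beside which these counts stand. Of 6 Kupffer cell markers, 5 fell, among them Timd4 by 1.42 on the log2 scale, Cd163 by 1.12 and Clec4f by 1.07. Of 10 markers of other macrophages and monocytes 8 rose and none fell, with Gpnmb at 7.13, Trem2 at 4.02 and Cd68 at 1.41. Among B cell markers, Cd79b fell by 1.01 and Cd79a by 0.59, Pax5 had -0.61 and Ms4a1 had -0.60 without passing, and Cd22 rose by 0.48. Of 5 tested conventional dendritic cell markers, Xcr1 fell by 1.02, Clec9a by 0.56 and Zbtb46 by 0.51, while Itgax, which macrophages also express, rose by 2.90. Flt3, Cd209a and Ccr7 were under the filter. The plasmacytoid dendritic cell list had 2 tested genes, Ly6d at 6.01 and Bst2 at 0.48, both higher, and Siglech, Ccr9 and Klk1 were under the filter. No marker was at 0 in every library.

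The other lists describe the tissue around these cells, again averaged over the arms, where 25.6% of all genes tested fell and 26.3% rose. Of 4 pan-leukocyte genes 2 rose, Laptm5 by 0.67 and Ptprc by 0.29. Of 6 T cell markers Cd3g fell by 1.18 and Cd3d by 0.64. All 4 cholangiocyte markers rose, with Krt19 at 1.99 and Krt7 at 1.58. These values include CCl4 + 4MU mouse 4, whose cholangiocyte sum was 121.6 CPM where the median of its group was 10.3 CPM. Of 5 stellate cell and fibroblast markers 3 rose and 1 fell, with Col1a1 at 4.06. Of 4 sinusoidal endothelium markers 2 rose and 1 fell. Of 5 hepatocyte genes 3 fell, Serpina1c by 1.27, Ttr by 0.39 and Alb by 0.31. The 3 tested neutrophil markers had log2 fold changes of 0.12 to 0.60 and did not pass the test.

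Summed marker levels are set beside the class II levels as a description, and the lists did not all run parallel to class II. The 6 Kupffer markers summed to 305.3 to 477.0 CPM in the control mice and 251.2 to 272.6 with CCl4, to 191.7 to 388.0 in CCl4 + 4MU mice, and to 112.5 to 195.3 in CCl4 + siLuc-LNP mice. They were lowest in CCl4 + siHAS2-LNP mice at 89.8 to 124.1 CPM, a group in which class II was also low. In siLuc-LNP mice, in contrast, they were 218.8 to 401.4 CPM, with 2 of 3 mice below every control mouse, while class II was above every control mouse (329.4 to 442.3 CPM in sum). The CCl4 + siLuc-LNP mice likewise had lower Kupffer sums than the CCl4 mice and higher class II sums (136.5 to 238.3 against 67.2 to 116.0 CPM). The macrophage and monocyte markers summed to 98.8 to 196.0 CPM in the control mice and 304.3 to 370.9 with CCl4. They were 484.6 to 758.2 CPM with CCl4 + 4MU, 280.5 to 618.6 with CCl4 + siLuc-LNP and 174.3 to 325.4 with CCl4 + siHAS2-LNP. In mice without CCl4 they were 65.1 to 155.2 with 4MU, 185.1 to 288.6 with siLuc-LNP and 226.4 to 251.7 with siHAS2-LNP. The pan-leukocyte genes summed to 43.1 to 54.05 CPM in control, 51.2 to 72.8 in siLuc-LNP and 58.0 to 58.2 in siHAS2-LNP mice. With CCl4 alone they summed to 68.7 to 74.8 CPM. Among the groups given CCl4, the highest single values of both the macrophage markers and the 7 class II genes were in CCl4 + 4MU mice, but in different ones: mouse 3 had 758.2 CPM of macrophage markers and 239.0 of class II, and mouse 4 had 500.8 and 431.5 CPM. The CCl4 group, in contrast, had more macrophage marker mRNA than control and less class II (67.2 to 116.0 against 167.6 to 325.6 CPM in sum). The conventional dendritic cell markers, which include Itgax, summed to 7.94 to 9.91 CPM in control mice, 10.8 to 12.0 with CCl4, 13.0 to 26.0 with CCl4 + 4MU, 10.2 to 19.0 with CCl4 + siLuc-LNP and 8.28 to 12.5 with CCl4 + siHAS2-LNP.

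Class II was also taken relative to transcripts of leukocytes and macrophages. The ratio of H2-Aa to Ptprc (CD45), both in CPM, was 2.203 to 3.72 in control mice and 0.583 to 1.31 in CCl4 mice. It was 2.25 to 3.98 in siHAS2-LNP mice and 0.893 to 1.22 in CCl4 + siHAS2-LNP mice, and 3.96 to 5.47 in siLuc-LNP and 0.860 to 2.84 in CCl4 + siLuc-LNP mice. These pairs of groups did not overlap. With 4MU the ratio was 1.06 to 3.50 without CCl4 and 1.39 to 4.71 with it, and these groups overlapped. Class II was also set against 2 macrophage genes. The ratio of H2-Aa to Csf1r was 0.612 to 1.36 in control and 0.278 to 0.671 in CCl4 mice, which overlapped. It was 0.624 to 0.933 in siHAS2-LNP and 0.389 to 0.588 in CCl4 + siHAS2-LNP mice, with no overlap. In siLuc-LNP mice it was 0.966 to 1.55 and in CCl4 + siLuc-LNP mice 0.499 to 0.880, also with no overlap. With 4MU it was 0.444 to 1.02 without CCl4 and 0.401 to 0.882 with it, which overlapped. The ratio of H2-Aa to Cd68 was 3.54 to 11.1 in control and 0.231 to 1.12 in CCl4 mice. Neither these groups nor those of the siLuc-LNP and siHAS2-LNP arms overlapped. In the 4MU arm it was 1.79 to 5.45 without CCl4 and 0.897 to 2.15 with it, which overlapped. Its means there were 3.99 ± 1.94 (SD, n = 3) and 1.49 ± 0.513 (n = 4).

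**Figure D5:**
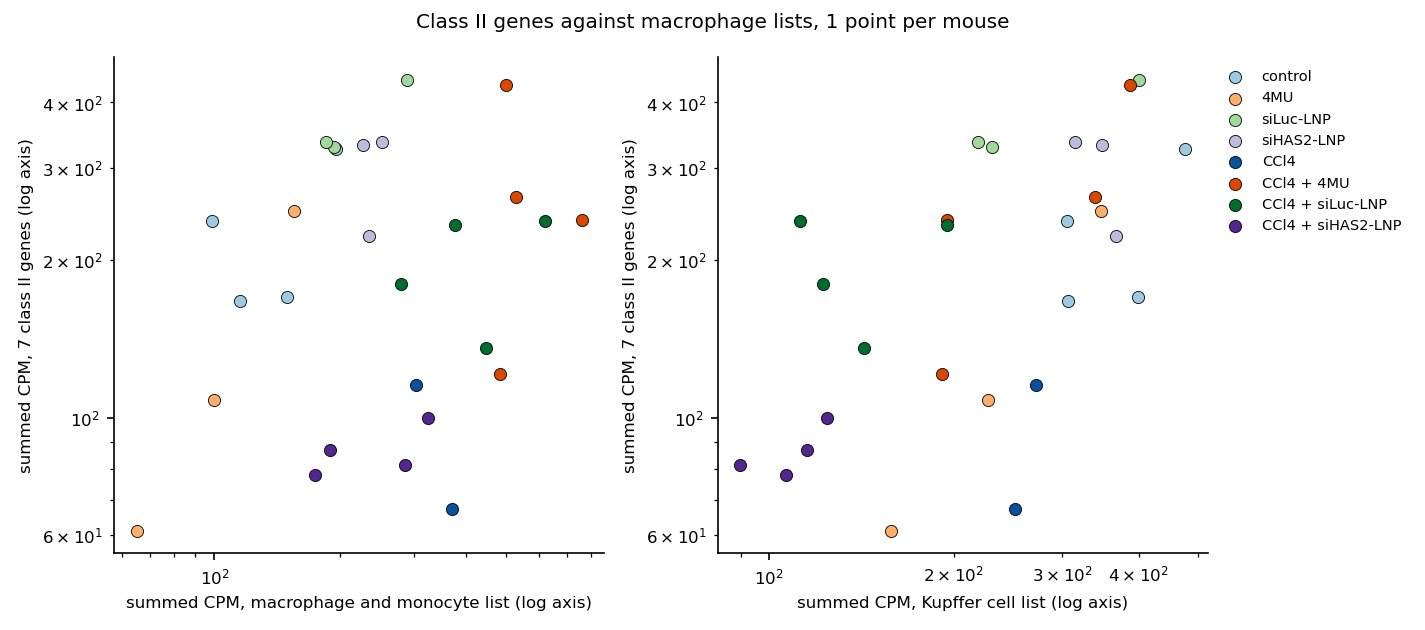
Summed CPM of the 7 class II genes against summed CPM of the macrophage and monocyte markers (left) and of the Kupffer cell markers (right), 1 point per mouse (27 mice), coloured by group, on log axes. The CCl4 + 4MU mice are among those furthest right on the left panel (484.6 to 758.2 CPM), and the CCl4 mice have less class II mRNA than any control mouse.

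Within groups the members varied together from mouse to mouse. Over the 27 libraries, with each group's mean removed from the log2 CPM, Pearson's r was 0.95 to 0.97 among H2-Aa, H2-Ab1 and H2-Eb1, and 0.92 to 0.95 between these and Cd74. H2-DMa had 0.79 to 0.85 with the presenting chains and Ciita had 0.73 to 0.78, and the lowest value, 0.53, was between H2-DMa and Ciita. These values are descriptions: the points share groups, depth and the overlapping exons given above, and low counts lower the values of Ciita and H2-DMb1. By the same measure against the mean of the members other than Ciita, the most alike of the other genes was H2-Ea at 0.94. It was followed by Cd300c2, a myeloid receptor, at 0.84, Gngt2 at 0.81, Unc93b1, which carries nucleic acid sensing receptors to endosomes, at 0.78, Spi1, Pilrb1 and Mocs3 at 0.77, and Aif1, a macrophage marker, at 0.76. H2-DMb2 had 0.75 and Csf1r, the receptor of macrophage growth factor, had 0.65. Ptprc had 0.06, Rfx5 0.04 and the B cell gene Cd79a -0.16. The likeness is within groups, and the CCl4 differences of the most alike genes varied. Averaged over the arms, Cd300c2 rose by 0.45 on the log2 scale and Spi1 by 0.41. H2-Ea fell by 0.89, Unc93b1 by 0.38 and Pilrb1 by 0.99, and Gngt2, Mocs3 and Aif1 did not pass the test.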

How the data were processed

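Total liver RNA of 27 mice was sequenced (NEBNext Ultra II Directional libraries, NextSeq500). Per the methods and the submitters' processing notes, the authors trimmed reads with Trimmomatic 0.39, aligned them with HISAT2 (version not given in the sources used here) to GRCm39.105, and counted read pairs per gene with featureCounts without multi-mapping reads. The deposited values are raw counts per gene, not normalized. The members, the gene lists and the comparisons were chosen with earlier results of these data known.

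Identifiers were joined to GENCODE vM39 (54749 matched, 665 did not). Genes averaging 10 or more counts over the libraries entered 1 model with the 8 groups (edgeR 4.0.16, R 4.3.3, TMM scaling), and contrasts were tested by quasi-likelihood in edgeR, with p-values adjusted by the Benjamini-Hochberg method over all 14114 genes and a threshold of 0.05. All p-values printed as adjusted come from it, and intervals are log2 fold change ± t × SE. Shares of all genes called are by adjusted p, and no share is given for unadjusted p. CPM were computed from the counts with TMM-scaled library totals. The alternatives were DESeq2 1.42.0, limma-voom with quality weights (limma 3.58.1), DESeq2 size factors, no filter, edgeR's own filter, a replicate block, a fit of the compared groups only, and leaving out each mouse. The rule for naming other genes took up to 4 per list with the largest called change with CCl4, Rfx5, Nlrc5, Ctss and Ptprc, and the 8 genes most correlated with the members other than Ciita. Genes of a list named beyond this were chosen after their values were seen, as were Csf1r and Cd79a among the correlations. A result of the B cell marker list is not reported here. The fits were tested on simulated counts. Each library is 1 mouse by its label, and totals ranged from 7044386 to 29425937 counts.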

Additional observations from a re-analysis of the deposited data

Results flagged for a closer look

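Of 28 pairs of a member and a group of 4 mice, 3 held a mouse whose gap to its nearest neighbour took a larger share of the group's range than Dixon's critical value, and chance gives about 1 in 20 such groups. H2-DMa was 4.68 CPM in CCl4 + siLuc-LNP mouse 4, where the others had 7.45 to 7.60 CPM. H2-DMb1 was 2.94 CPM in CCl4 + siHAS2-LNP mouse 4, the library with the fewest counts, where the others had 0.963 to 1.21 CPM. Cd74 was 159.3 CPM in control mouse 1, where the others had 78.2 to 91.7 CPM.

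The CCl4 difference with 4MU was set apart from that without it by the interaction test for 6 members, at log2 values of 2.79 for H2-Ab1, 2.34 for Ciita, 2.28 for H2-Eb1, 2.18 for Cd74, 2.16 for H2-DMb1 and 1.76 for H2-DMa. Without CCl4 mouse 2, 1 of the 2 mice that received CCl4 alone, 0 members passed.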

How the results depend on the processing

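Of 1813 values of single members under alternatives, 1595 kept their direction and their side of the threshold, 132 were no longer called, 66 became called and 20 turned in direction, all of them uncalled. Counts of called members moved by over 1.5 times as follows, and the cause was not tested. With limma-voom the count was 0 for CCl4 against control, for CCl4 in the siLuc-LNP arm and for siLuc-LNP against CCl4 alone, and 1 for 4MU against CCl4 alone and for the 4MU interaction. With DESeq2 it was 5 for CCl4 in the 4MU arm, 3 in the siLuc-LNP arm, 2 for siLuc-LNP against CCl4 alone and 6 for siHAS2-LNP against siLuc-LNP with CCl4. With no filter it was 7, 4, 5 and 6 for these, and 2 for siLuc-LNP against control. In fits of the compared groups only it was 1 in the 4MU arm, 3 in the siLuc-LNP arm, 4 for 4MU and 0 for siLuc-LNP against CCl4 alone.

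Leaving out 1 mouse at a time, the count ran from 0 to 5 for CCl4 against control, 1 to 7 in the 4MU arm, 0 to 1 in the siLuc-LNP arm, 0 to 7 for 4MU and 0 to 3 for siLuc-LNP against CCl4 alone, 0 to 5 for CCl4 + 4MU against CCl4 + siHAS2-LNP and 0 to 7 for the 4MU interaction. Pairing of mice by number was not seen by a coarse rule, which could miss a weak pairing. Of 28 pairs of groups, 0 had 3 or more shared numbers with every correlation of same-numbered mice over 0.1 (r from -0.32 to 0.293). With the replicate number as a block the count was 0 for siLuc-LNP against CCl4 alone, 2 for CCl4 + 4MU against CCl4 + siHAS2-LNP and 3 for the 4MU interaction, and within 1.5 times elsewhere.

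The turns in direction were of values near 0. Leaving out 1 mouse at a time, with CCl4 in the siLuc-LNP arm H2-DMa ran from -0.23 to 0.077 and Ciita from -0.24 to 0.10 (0.17 with limma-voom). For CCl4 + siHAS2-LNP against CCl4 alone, H2-Aa ran from -0.58 to 0.36, H2-Ab1 from -0.16 to 0.47, H2-Eb1 from -0.43 to 0.19, Cd74 from -0.59 to 0.40 and H2-DMa from -0.11 to 0.19 (-0.0024 with edgeR's own filter). For siHAS2-LNP against siLuc-LNP, H2-DMa ran from -0.039 to 0.28 and Cd74 from -0.30 to 0.053. For the siLuc-LNP interaction, H2-Aa ran from -0.26 to 0.67 and Cd74 from -0.072 to 0.91.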

Other observations

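The level of Ciita relative to its target H2-Aa (CPM over CPM) was chosen for description after its values were seen, and is given without a test. It was 0.0601 to 0.0827 in control mice, 0.0524 to 0.0736 with CCl4 alone and 0.0688 to 0.0921 with CCl4 + 4MU. It was 0.0502 to 0.0672 in siLuc-LNP and 0.0461 to 0.0647 in siHAS2-LNP mice. The ratio was 0.0980 to 0.123 in CCl4 + siLuc-LNP and 0.121 to 0.132 in CCl4 + siHAS2-LNP mice, so both siRNA groups given CCl4 lay above the matching groups without it. In the 4MU mice it ran from 0.0511 to 0.168, and Ciita had few counts in all libraries.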
